A study of Mus musculus with 6 samples.

Results

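The genes described here are 10 small noncoding RNA genes that are transcribed from promoters of their own and not released from an intron of a host gene. They were taken from a fixed list of names, out of 55450 genes in the GENCODE vM21 annotation of the mouse genome (mm10). No rule on measured values was used, but earlier results of these data were known when the list was made. Of these, 5 are transcribed by RNA polymerase II and carry a cap (Snord118, Snord13, Rnu11, Rnu12 and Terc), and 5 are transcribed by RNA polymerase III (Rmrp, Rpph1, Rn7sk, Rny1 and Rny3). CAGE (cap analysis of gene expression), which reads a short stretch at the start of RNAs that carry a cap, was measured on nuclear RNA from 3 libraries of R08 mESCs, a mouse embryonic stem cell line grown without feeders in medium with serum and leukemia inhibitory factor, and from 3 libraries of mOPCs, the oligodendrocyte progenitor line Oli-neu, grown in proliferation medium with thyroid hormones, bFGF and PDGF-BB. The labels name no further treatment, each cell type is represented by a single line, and both are cultured lines and not primary cells.

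RNA polymerase II and RNA polymerase III both make some small stable RNAs from compact promoters, in which the complex SNAPc binds a short element just upstream of the start. Which of the listed genes have such a promoter was not examined. In the genes of RNA polymerase II the new RNA receives a 7-methylguanosine cap, which in U snRNAs, independent snoRNAs and telomerase RNA is later hypermethylated. The first base of RNA polymerase III transcripts normally keeps its triphosphate, or in 7SK RNA receives a methyl group on the terminal phosphate, so that the 7-methylguanosine cap is not a feature of this class.

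The libraries held between 16657021 and 40928704 tags. All 8 mESC marker genes had fewer tags in mOPCs, with a summed level of 3081 to 3398 TPM (tags per 1000000 tags of the library) in mESC libraries and 11.7 to 14.8 in mOPC libraries, and Pou5f1, Zfp42, Dppa5a and Tdgf1 were at 0 in every mOPC library. All 8 oligodendrocyte progenitor markers had more tags in mOPCs, at 20.6 to 21.7 TPM in mESC and 2742 to 2880 in mOPC libraries. Of the markers of other cells, the 4 of mature oligodendrocytes summed to 3.96 to 4.67 TPM in mESC and 275 to 307 in mOPC libraries, with 4 of 4 called higher. The summed levels in mESC and mOPC libraries were 9.67 to 11.4 and 0.782 to 0.912 for 3 astrocyte markers, 8.85 to 9.69 and 1.60 to 2.50 for 3 neuron markers, 17.3 to 23.0 and 9.62 to 12.2 for 4 fibroblast markers, of which Thy1 fell from 17.4 ± 3.09 to 0.00814 ± 0.0141 and Col1a1 rose from 1.71 ± 0.158 to 11.1 ± 1.31, and 13.01 to 14.9 and 0 to 0.0694 for 3 endoderm markers. The part of such cells in the results on the small RNA genes was not tested. The 3 libraries of a cell type share a label in the files that differs between the cell types, so the preparation and the cell type cannot be told apart, and p-values measure the spread between these libraries.

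Where the tags began on each gene was examined first, and a few sequences show what those positions mean. Offsets are given in bases from the annotated 5′ end, which is 0, and negative offsets lie upstream. In the Terc sequence the 60 bases from the annotated 5′ end are shown, and the capitals mark the 21 bases that follow the main start, which hold the template that telomerase copies into telomeric repeats. In the Rpph1 sequence the whole stretch between the annotated gene Parp2 and Rpph1 and the first bases of Rpph1 are shown, and the capitals mark the bases at offsets -4 to -1, where most tags began. In the Rmrp sequence the capital marks the base of the main start. The sequences are from GENCODE vM21 transcripts and RefSeq (GRCm38.p6).
Terc, chr3:96414800-96414859, minus strand: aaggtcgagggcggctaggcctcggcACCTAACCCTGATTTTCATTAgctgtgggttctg
Rpph1 with its upstream bases, chr14:50807748-50807840, minus strand: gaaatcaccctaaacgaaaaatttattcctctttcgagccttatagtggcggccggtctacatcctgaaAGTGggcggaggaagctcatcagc
Rmrp with its main start, chr4:43493034-43493063, minus strand: aggcAgctcgctctgaaggcctgtttccta

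In 4 of the 5 RNA polymerase II genes the main start, the position with the most tags, lay 1 base upstream of the annotated 5′ end in all 6 libraries. These were Snord118 (U8 snoRNA, which acts in the maturation of large ribosomal subunit RNA), Snord13 (U13 snoRNA, which acts on small ribosomal subunit RNA), Rnu11 (U11 snRNA, which recognises the 5′ splice site of minor introns) and Rnu12 (U12 snRNA, which pairs with their branch point). Of the tags of each gene, counted from 10 bp upstream to the 3′ end over all libraries, 58.7% fell on that position in Snord118, 68.8% in Snord13, 55.8% in Rnu11 and 71.9% in Rnu12. In Snord118, Snord13 and Rnu11 most of the rest lay 1 base further upstream, while in Rnu12 4 of 57 tags lay there. In Snord118 that position, at offset -2, held 2282 tags against 3473 at the main start. Its share was 39.0 to 45.7% in mESC libraries and 21.8 to 37.5% in mOPC libraries, so the ranges did not overlap. The same held for offset -2 of Rnu11 (27.8 to 34.0% against 21.1 to 25.3%), while in Snord13 the ranges overlapped (19.5 to 29.4% against 11.3 to 26.7%). How many of all genes show such a shift at a single position was not computed. A base that reverse transcription adds at the cap can also move a start 1 base upstream, and its part here was not tested. The start annotated by RefSeq coincides with the main start of Snord118, whereas RefSeq places the 5′ end 10 bases downstream of the main start in Snord13, 28 bases in Rnu11 and 2 bases in Rnu12.

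Terc (telomerase RNA, chr3:96414437-96414859) was the exception among these genes. Its tags began 26 bases inside the GENCODE gene, at the 5′ end that RefSeq annotates, in all 3 mESC libraries. That position held 3012 of 4169 tags (72.2%), and the base before it held 845. From there to the annotated 3′ end the RNA would have 397 bases, while the GENCODE gene has 423. The sequence printed above shows that the main start lies just before the template. Within 10 bp of the GENCODE 5′ end only 6 tags were found, all in mESCs.

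Among the RNA polymerase III genes, Rmrp (the RNA of RNase MRP, an endonuclease that cleaves precursor ribosomal RNA) had the sharpest start. The A marked above, 1 base upstream of the annotated 5′ end and the first base of the RefSeq gene, held 74.4% of its 3644 tags and was the main start in all 6 libraries. Offsets -2, 0 and 1 held a further 274, 143 and 115 tags, and 89.1% of all its tags lay within 2 bp of the annotated 5′ end. Rpph1 (the RNA of RNase P, which removes the 5′ leader of precursor tRNAs) had no single start. Offsets -4, -3, -2 and -1 held 249, 138, 340 and 88 of its 977 tags, and offset -4 is where RefSeq begins the gene. The letters TATAA on either strand, the core of a TATA box, were searched in the bases upstream of Rpph1, and TTATA, the reverse complement of TATAA, was found at offset -33. Of 32851 RefSeq promoters, 6.36% hold TATAA or TTATA in the 50 bases before the start. The match is a description of the letters and not of a factor.

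Rny1 and Rny3 (Y RNAs, bound by the Ro60 protein) held 145 and 97 tags, and the most frequent position of both was the annotated first base, with 48 and 41 tags. In Rny1 a second set of starts lay at offsets -9 to -6, with 25, 28, 13 and 13 tags, and the main start changed between libraries, being offset 0 in mESC library 3 and mOPC library 3 and -9 to -7 in the other 4. In Rny3 the main start was offset 0 in 4 libraries and -1 in the other 2. Rn7sk (7SK RNA, which holds the elongation kinase P-TEFb inactive) had 39 tags in all, of which 11 lay at offset -7 and 0 within 5 bp of the annotated 5′ end. It had no stable start in these libraries, since the main position was -7 in the mESC libraries and 250 to 265 bases inside the gene in the mOPC libraries.

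**Figure D1:**
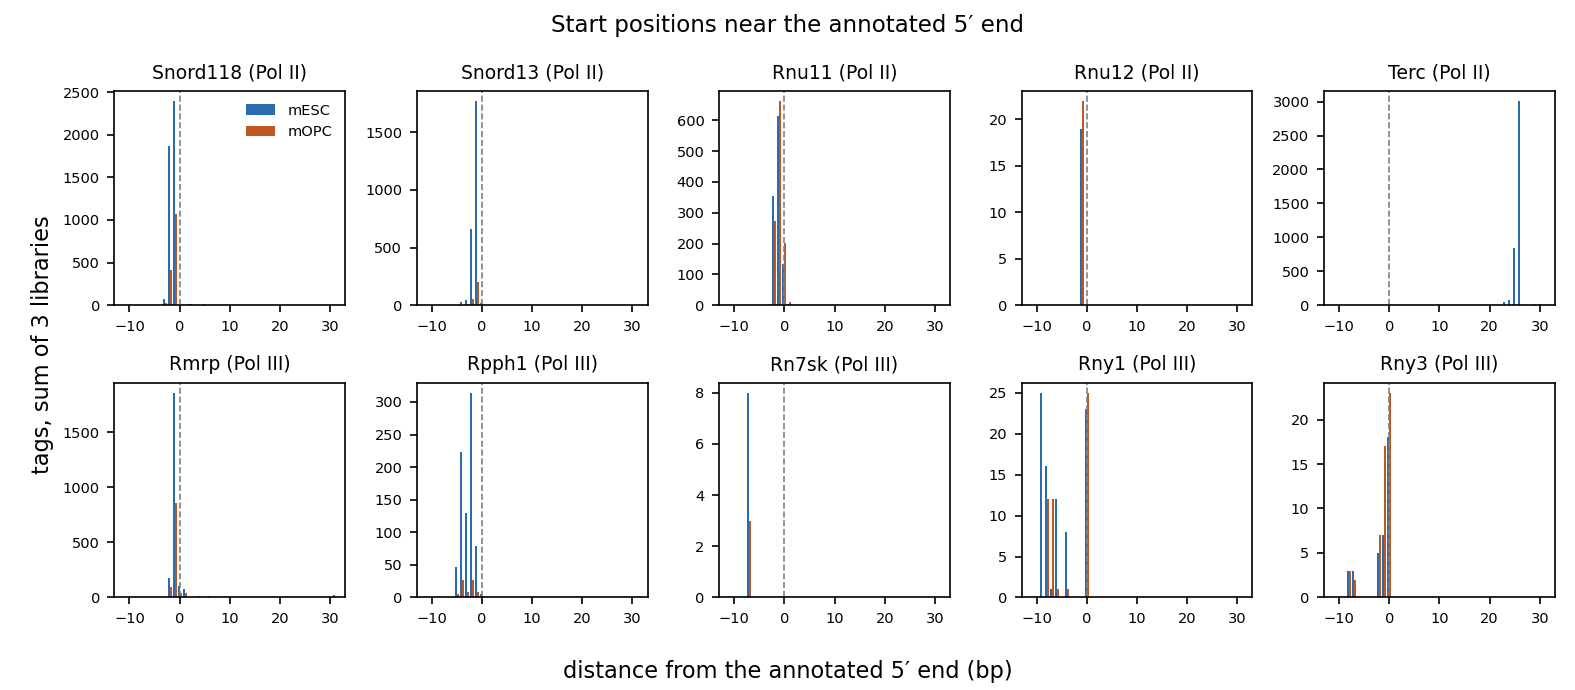
Tags by distance from the annotated 5′ end (bp), summed over the 3 libraries of each cell type (bars, mESC blue, mOPC orange), for positions that hold at least 5 tags in all. The vertical scale differs between genes. Snord118, Snord13, Rnu11, Rnu12 and Rmrp peak at -1, Terc at 26, and Rpph1 and Rny1 spread over several upstream positions.

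The level of each gene was then compared in a window of the same width, 11 bp centred on its main start, in TPM. In mESCs Snord118 stood highest at 59.0 ± 3.01 TPM (SD, n = 3 here and below), followed by Terc at 54.4 ± 2.85, Snord13 at 32.9 ± 5.66, Rmrp at 31.0 ± 7.65, Rnu11 at 15.0 ± 2.81 and Rpph1 at 9.86 ± 3.49. In this window a gap of more than an order of magnitude separated these from Rny3 (0.501 ± 0.195), Rny1 (0.488 ± 0.0623), Rnu12 (0.296 ± 0.0230) and Rn7sk (0.134 ± 0.0962). The ranges of Snord118 and Terc, of Snord13 and Rmrp, of Rnu11 and Rpph1, and of Rny3 and Rny1 overlapped between libraries. Within each library Snord118 stood above Terc and Rnu11 above Rpph1, while Snord13 and Rmrp, and Rny3 and Rny1, changed order between libraries. The window of Rny1 held 65 of its 145 tags and left out its starts at offsets -9 to -6. Counted from 10 bp upstream to the 3′ end, mESC levels were 1.14 ± 0.306 TPM in Rny1, 0.592 ± 0.149 in Rny3 and 10.7 ± 3.55 in Rpph1. The place of Rny1 and the width of the gap thus depend on the window.

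In mOPCs the order changed to Snord118 (16.7 ± 1.06 TPM), Rnu11 (12.8 ± 1.24), Rmrp (11.6 ± 1.61), Snord13 (3.11 ± 0.412), Rpph1 (0.950 ± 0.532), Rny3 (0.545 ± 0.190), Rny1 (0.306 ± 0.0525), Rnu12 (0.289 ± 0.199) and Rn7sk (0.0499 ± 0.0521), with Terc at 0 in all 3 libraries. Rnu11 and Rmrp overlapped, as did Rpph1 and Rny3, Rny1 and Rnu12, Rnu12 and Rn7sk, and Rn7sk and Terc. The window of Rn7sk lay at offset -7, its main position in the mESC libraries only, so its values there do not compare the cell types. Counted from 10 bp upstream to the 3′ end, Rn7sk stood at 0.143 ± 0.0857 TPM in mESCs and 0.331 ± 0.164 in mOPCs, with overlap between libraries.

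**Figure D2:**
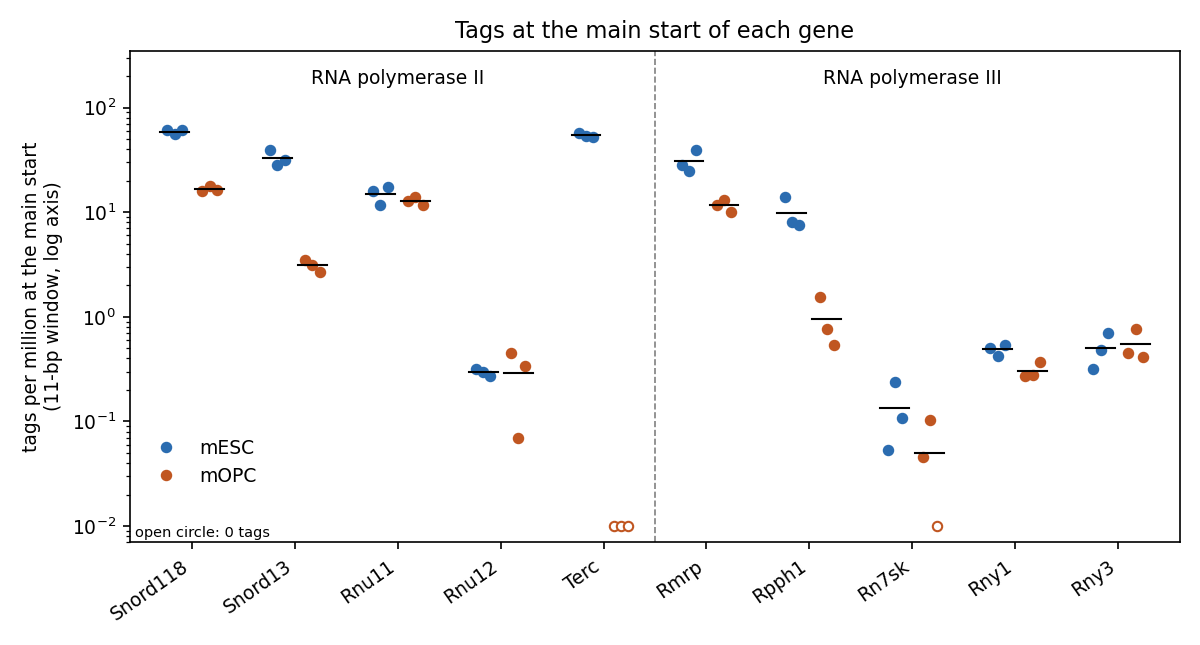
Levels in TPM in the 11-bp window around the main start (log axis) for each gene, with 1 point per library and a line at the mean of the 3 libraries. Open circles at the bottom mark libraries with 0 tags. Both classes range from above 30 TPM to below 1, and Terc falls from 54.4 in mESCs to 0 in mOPCs.

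The contrast of the polymerase classes showed no separation of the levels. The ranges of the 5 RNA polymerase II genes and the 5 RNA polymerase III genes overlapped in 6 of 6 libraries. Among the 25 pairs of a gene of each class, the RNA polymerase II gene had more tags between 10 bp upstream and the 3′ end in 77.3 ± 2.31% of pairs in mESCs and 57.3 ± 4.62% in mOPCs. In the 11-bp start window the values were 78.7 ± 2.31% and 60 ± 4%. Rmrp, transcribed by RNA polymerase III, stood above Rnu11 and Rnu12 in all 3 mESC libraries, and Rnu12, transcribed by RNA polymerase II, stood below Rny1 there. The low levels of Rnu12 and Rn7sk are uncertain, since their tags cannot be told apart from those of copies with the same first bases, described below. Leaving out Rnu12 raised the percentage of pairs in both cell types, and leaving out Rn7sk lowered it. As sums over the class, between 10 bp upstream and the 3′ end, the RNA polymerase II genes had 6692, 2517 and 3030 tags in mESCs and 737, 1026 and 1298 in mOPCs. The RNA polymerase III genes had 1841, 646 and 1004 tags and 371, 513 and 527 tags. The members are genes and not replicates, so no test of the classes was made.

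How closely tags kept to the annotated 5′ end was compared next. With a tolerance of 5 bp, the pooled share at the 5′ end was 99.6% in Snord118, 97.7% in Snord13, 99.6% in Rnu11, 90.0% in Rmrp and 89.8% in Rpph1, the 5 genes with at least 20 tags in every library. The 3 RNA polymerase II genes among them thus lay above the 2 RNA polymerase III genes in the pooled tags, as they did in each library except mOPC library 3, where Snord13 (82.7%) lay below Rmrp (93.2%). Of the 5 genes, 3 had a lower share in mOPCs without overlap between the cell types, beside 26.8% of 12266 genes in the same direction. The share of Rpph1 was 93.7, 92.5 and 90.4% in mESCs and 71.7, 73.3 and 55% in mOPCs. Snord13 had 98.7, 99.2 and 99.1% against 89.5, 92.8 and 82.7%. Snord118 differed by little, with 99.61 to 99.82% against 99.15 to 99.55%. The shares of Rnu11 and Rmrp overlapped.

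Tags beyond the start of Rpph1 lie partly in the gene Ccnb1ip1, which is annotated to begin on the same strand 35 bases inside Rpph1. From that point on, Rpph1 held 32, 11 and 15 tags in the mESC and 12, 8 and 15 tags in the mOPC libraries. Before it, Rpph1 held 527, 135 and 141 tags in mESCs and 34, 22 and 25 in mOPCs. In TPM the part from that point on was 0.845, 0.660 and 0.814 in mESCs and 0.547, 0.277 and 0.366 in mOPCs, and the part before it was 13.9, 8.10 and 7.65 against 1.55, 0.763 and 0.611. Both parts were thus lower in mOPCs without overlap, and the lower share of Rpph1 stood beside a wider difference at the start than inside the gene. Ccnb1ip1, counted over its own length, fell from 26.7 ± 0.542 to 0.425 ± 0.118 TPM (log2 fold change -6.08, SE 0.17, edgeR adjusted p = 8.54e-50), and to which of the overlapping genes the tags inside Rpph1 belong cannot be told apart.

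Next, the tags from 10 bp upstream to the 3′ end were compared between the cell types with edgeR's quasi-likelihood test over all 19146 genes with enough tags. Of the 10 genes, 8 were tested, 7 were lower in mOPCs at a Benjamini-Hochberg adjusted p under 0.05 and 1 was not called, while 46.3% of all genes tested were lower and 44.6% higher. Calls were frequent in this comparison, with 90.8% of genes called in either direction. The share of all genes whose libraries do not overlap in TPM was not computed, so non-overlap in gene tags is given as a description only. The median log2 fold change was -1.72 over the 8 genes and -0.04 over all genes. Rnu12 and Rn7sk had too few tags to be tested. Fewer copies of an RNA per nucleus and fewer nuclei that make it cannot be told apart in bulk libraries. Tags count captured 5′ ends in nuclear RNA, so the amount of an RNA and the part of it that is capped or captured cannot be told apart either. How far the tags of RNA polymerase III genes follow the amount of their RNA was not tested.

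Terc showed the widest difference of the 8 genes tested. It held 2249, 912 and 1000 tags in mESCs and 6, 0 and 2 in mOPCs, so the groups lay far apart. The log2 fold change was -9.34 (SE 0.21, edgeR adjusted p = 4.12e-49), and without mOPC library 1, which held 6 of the 8 mOPC tags, it was -10.79. Around its main start the mESC libraries held 4033 tags and the mOPC libraries 0. Taking 3 tags over the pooled mOPC libraries (0.0327 TPM) as the limit that a count of 0 allows, the start of Terc was at least 1689-fold lower in mOPCs, with counting error only.

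The pair of snoRNA genes was lower as well. Snord13 (chr8:31149864-31149967) held 1501, 471 and 586 tags in mESCs and 86, 97 and 133 in mOPCs, with a log2 fold change of -3.36 (SE 0.12, edgeR adjusted p = 8.67e-41). Snord118 (chr11:69073427-69073561) held 2323, 931 and 1119 tags against 352, 519 and 669, with a log2 fold change of -1.92 (SE 0.09, edgeR adjusted p = 7.49e-34). On the scale of TPM neither gene overlapped between the cell types.

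Of the minor spliceosomal snRNA genes, Rnu11 was lower by a small amount and Rnu12 was not tested in this window. Rnu11 (chr4:132270080-132270213) held 603, 198 and 320 tags in mESCs and 281, 407 and 478 in mOPCs, which is 15.1 ± 2.84 against 12.9 ± 1.22 TPM. Its libraries overlapped, and the log2 fold change of -0.33 (SE 0.12, edgeR adjusted p = 0.00551) no longer passed the test when tags within 500 bp were counted (-0.24, adjusted p = 0.0568). Rnu12 (chr15:83149644-83149794) held 16, 5 and 5 tags in mESCs and 12, 3 and 16 in mOPCs.

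The RNase RNA genes of RNA polymerase III were lower too. Rpph1 (chr14:50807449-50807767) held 559, 146 and 156 tags in mESCs and 46, 30 and 40 in mOPCs, with a log2 fold change of -3.18 (SE 0.31, edgeR adjusted p = 5.14e-06). Rmrp (chr4:43492788-43493058) held 1206, 473 and 811 tags against 296, 420 and 438, with a log2 fold change of -1.53 (SE 0.13, edgeR adjusted p = 2.58e-11). Neither gene overlapped between the cell types in TPM. Whether these genes differ from the snoRNA genes in their change was not tested.

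The Y RNA genes lie close together on chromosome 6. Rny1 (chr6:47788069-47788180) held 55, 14 and 21 tags in mESCs and 12, 24 and 19 in mOPCs, which is 1.14 ± 0.306 against 0.615 ± 0.193 TPM. Its log2 fold change was -1.08 (SE 0.29, edgeR adjusted p = 0.000502), and the libraries did not overlap but came close, with 0.840 TPM in the lowest mESC library and 0.832 in the highest mOPC library. Rny3 (chr6:47781624-47781725) held 18, 9 and 14 tags against 12, 24 and 20, its libraries overlapped, and its log2 fold change of 0.02 (SE 0.34, edgeR adjusted p = 0.946) did not pass the test. Rn7sk (chr9:78175303-78175633) held 3, 4 and 2 tags in mESCs and 5, 15 and 10 in mOPCs.

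**Figure D3:**
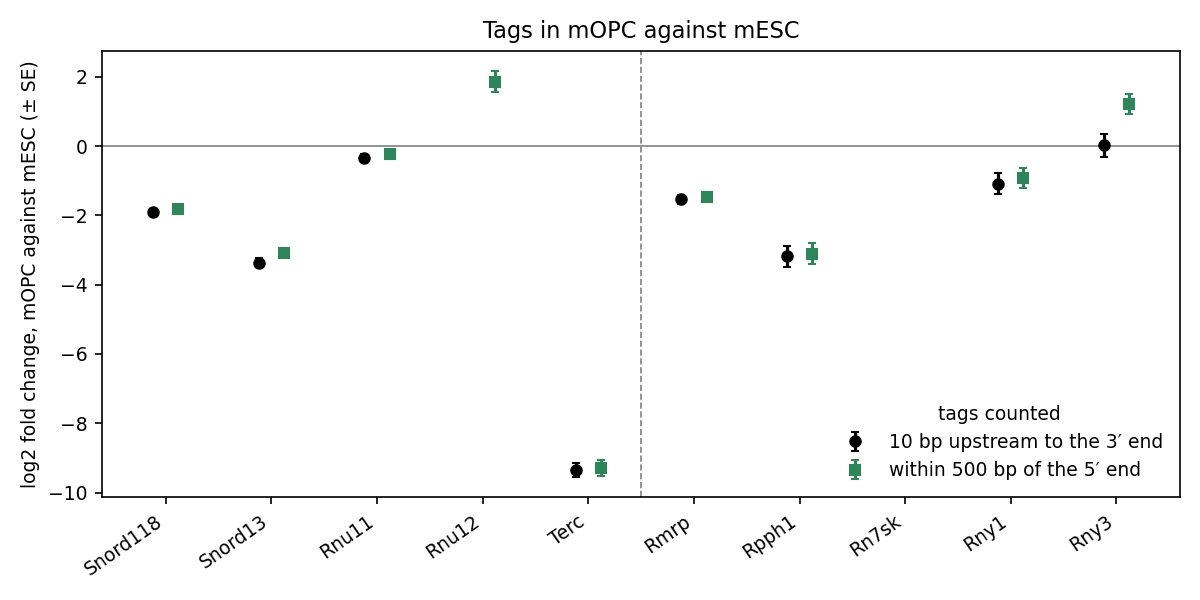
Log2 fold change of mOPC against mESC with its standard error from edgeR, for tags counted from 10 bp upstream to the 3′ end (black circles) and within 500 bp of the 5′ end (green squares). Genes without a symbol had too few tags to be tested in that window. In the wider window Rnu12 lies at 1.86 and Rny3 at 1.22, and the other genes tested there lie below 0. Rnu12 reached the test there only through its mOPC tags.

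The low tag numbers of Rnu12 and Rn7sk stood beside annotated copies with the same first bases. The CAGE tags are 21 to 27 bases long, and annotated transcripts were searched for the first 27 bases of each gene with up to 2 mismatches. An exact copy of those bases was found for Rnu12 in the gene Gm25703, and 3 exact copies were found for Rn7sk, of which Gm24146 held the most tags. The first 40 bases are shown to make the identity visible. Capitals in the listed genes mark the first 21 bases, and capitals in the copies would mark bases that differ, of which there were 0.
Rnu12, chr15:83149644-83149683, plus strand: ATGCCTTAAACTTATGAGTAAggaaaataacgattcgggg
Gm25703, chr2:129315440-129315479, minus strand: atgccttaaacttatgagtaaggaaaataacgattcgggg
Rn7sk, chr9:78175594-78175633, minus strand: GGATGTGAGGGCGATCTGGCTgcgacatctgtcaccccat
Gm24146, chr5:139844930-139844969, plus strand: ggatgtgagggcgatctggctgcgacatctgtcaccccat

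Further into the RNA the copies diverge. Gm25703 is identical to Rnu12 at 144 aligned bases (95.4%) and Gm24146 to Rn7sk at 279 (82.5%). Within 10 bp of its 5′ end Gm25703 held 1055, 326 and 388 tags in mESCs and 650, 631 and 727 in mOPCs, where Rnu12 itself held 15, 5 and 5 and 11, 2 and 14. Of the tags at Gm25703, 98.0% lay at offset -1, the same position as the main start of Rnu12. Its level was 22.8 ± 4.41 TPM in mESCs and 23.1 ± 6.03 in mOPCs, and the log2 fold change of -0.12 (SE 0.17) did not pass the edgeR test (adjusted p = 0.498).

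Gm24146 held 180, 88 and 94 tags in mESCs and 605, 712 and 497 in mOPCs, where Rn7sk held 2, 4 and 2 and 1, 3 and 0 within 10 bp. Every mOPC library was above every mESC library, at 21.5 ± 8.21 against 5.05 ± 0.271 TPM, with a log2 fold change of 1.98 (SE 0.38, edgeR adjusted p = 0.00550). Of its tags 97.2% lay at offset -1. The other exact copies of Rn7sk, Gm23624 and Gm24447, held 6 and 4 tags. The 40 shared bases are longer than a tag, so tags that begin on these genes differ at most in the bases upstream of the annotated 5′ end, and at which copy the RNA was made cannot be told apart.

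The copies of the other genes held few tags. Snord13, Terc, Rmrp and Rny3 had 0 copies within 2 mismatches over 27 bases. Over 21 bases, the shortest tag, Snord13 and Terc had 1 copy each within 2 mismatches and Rnu11 had 1 exact copy, while Rmrp and Rny3 had 0. Over 27 bases the copies of Snord118, Rpph1 and Rny1 held 2, 2 and 1 tags in all. The 2 copies of Rnu11 held 127 tags beside 2287 of Rnu11 itself.

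**Figure D4:**
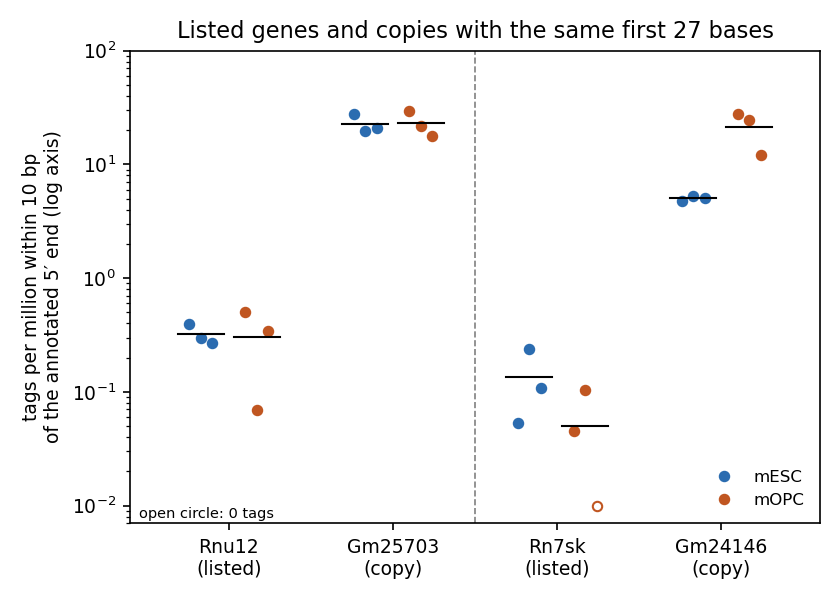
Levels in TPM within 10 bp of the annotated 5′ end (log axis) for Rnu12 and Rn7sk and for the copies that share their first 27 bases, with 1 point per library and a line at the mean. Open circles mark 0 tags. Both copies lie above 4 TPM in every library, and both listed genes lie below 1.

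When the window was widened to 500 bp on each side, tags upstream of the genes came into view. Between 500 and 100 bp upstream, on the strand of the gene, the 10 genes together held 25 tags in mESCs and 294 in mOPCs. Rnu12 had 2, 0 and 0 such tags in mESCs and 21, 43 and 33 in mOPCs. Rny3 had 0, 0 and 1 against 15, 29 and 25, with the most frequent position at offset -217. Snord118, Snord13 and Rnu11 had 2, 7 and 5 tags in mESCs and 41, 41 and 38 in mOPCs, and the upstream window of Snord118 overlaps the 3′ end of Tmem107 on the same strand.

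In these 5 genes every mOPC library lay above every mESC library in upstream TPM, a pattern that 45.0% of 5601 genes with enough upstream tags shared. Enough meant at least 20 upstream tags over all libraries together, which these 5 genes reached only through their mOPC tags. The direction in these genes was thus largely set by that filter and is not support for a difference. Over all genes the same upstream window took 3.13 to 3.23% of tags in mESC libraries and 4.56 to 4.76% in mOPC libraries. Terc differed in direction, with 2, 2 and 4 upstream tags in mESCs and 0 in each mOPC library, and Rmrp, Rpph1, Rn7sk and Rny1 had at most 4 upstream tags in any library. The upstream tags moved the wider count of 2 genes past the test. Rnu12 had too few tags for the test in the narrower windows and reached it here only through its mOPC tags. Its call is thus not support for a difference. Within 500 bp Rnu12 held 18, 6 and 5 tags in mESCs and 36, 46 and 51 in mOPCs, with a log2 fold change of 1.86 (SE 0.31, edgeR adjusted p = 1.56e-07), and Rny3 had a log2 fold change of 1.22 (SE 0.30, edgeR adjusted p = 0.000162).

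**Figure D5:**
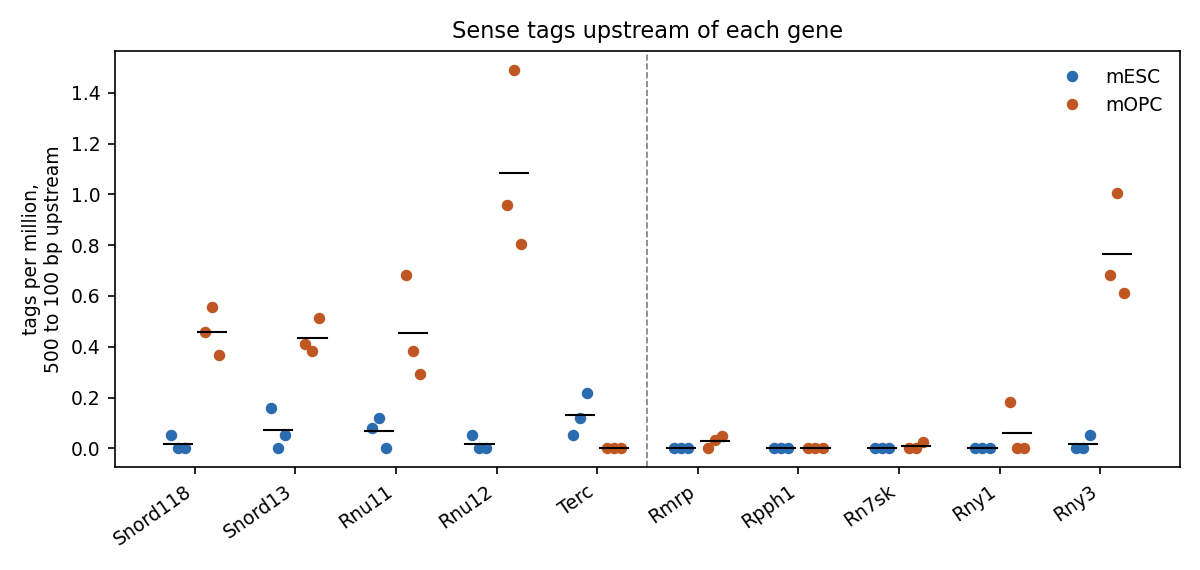
Levels in TPM between 500 and 100 bp upstream of each gene on its own strand, with 1 point per library and a line at the mean. The mOPC libraries lie above the mESC libraries in Snord118, Snord13, Rnu11, Rnu12 and Rny3.

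Several of the genes face another promoter. On the opposite strand within 500 bp, the most used start lay 371 bp from the main start of Snord13 (in Tti2), 345 bp from Rnu12 (in Poldip3), 315 bp from Rmrp (in Ccdc107), 155 bp from Rpph1 (in Parp2) and 306 bp from Rn7sk (in the lincRNA C920006O11Rik). As raw tags over pooled libraries of 72972385 (mESC) and 91692553 (mOPC) tags, the opposite strand near Rmrp held 2197 in mESCs and 3937 in mOPCs, near Rpph1 it held 7326 and 5121, near Snord13 it held 937 and 1221, and near Rn7sk it held 490 and 1706. CAGE tags carry strand, so these tags were not counted for the small RNA genes.

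Other small RNA genes give a frame for these values. Of 2315 snRNA, snoRNA, scaRNA, misc_RNA and ribozyme genes outside a longer gene on the same strand, the 10 genes apart, 11 had at least 20 tags in every library, and the median share of their tags at the 5′ end was 94.8%. These shares ran from 0 to 100%, with 7 of the 11 above 50%. Rnu3a is among the 11 under duplicate entries at the same place, and its value is the median. The copies Gm25703 and Gm24146 are among them too. Rnu3a (U3 snoRNA, of RNA polymerase II) held 1964, 882 and 1124 tags within 10 bp in mESCs and 116, 159 and 144 in mOPCs. Rnu7 (U7 snRNA, which acts in histone mRNA 3′ end formation) lies inside a longer gene on the same strand, and held 333, 106 and 121 against 39, 41 and 49. Rnu73b, also inside a longer gene, held 11, 0 and 1 against 12, 9 and 21. Vaultrc5, a vault RNA gene of RNA polymerase III, held 58, 28 and 24 against 7, 8 and 19. In Rnu3a, Rnu7 and Vaultrc5 every count in mOPCs was below every count in mESCs. Scarna2 held 691738 tags over all libraries, far more than any of the 10 genes. Rnu1b1, Rnu2-10, Rnu5g and Rnu6, from the families of the major spliceosomal snRNAs, held 0 tags within 10 bp in all 6 libraries; these families have many near-identical genes, whose tags cannot be told apart.

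The proteins that transcribe, cap and bind these RNAs were examined by lists, with each gene counted over its own length, so that levels are compared between cell types and not between genes. All calls are by edgeR, and the largest adjusted p among the 20 partner genes named by rule is 3.05e-12. Of all genes tested, 44.6% were called higher and 46.3% lower, the lists were not tested as groups, and a count near these shares says nothing particular of a list. In the list of SNAPc and promoter factors, 6 of 19 genes were higher in mOPCs, 10 lower and 3 not called (median log2 fold change -0.32). Snapc5, a small SNAPc subunit, fell from 54.0 ± 0.859 to 5.96 ± 0.663 TPM, and Gtf3c2, a subunit of TFIIIC, rose from 108 ± 4.66 to 890 ± 45.0. Of 13 RNA polymerase III subunit genes 4 were higher, 7 lower and 2 not called (median -0.42). Polr3g fell from 111 ± 5.00 to 16.2 ± 0.275 TPM and Polr1c, a subunit shared with RNA polymerase I, from 62.9 ± 5.97 to 16.0 ± 0.215. Polr3gl, the paralogue of Polr3g and named here after its values were seen, rose from 65.3 ± 6.04 to 246 ± 8.77.

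Integrator cleaves the 3′ ends of snRNA precursors, and of its 15 subunit genes 6 were higher, 5 lower and 4 not called (median 0.03), shares that are both under those of all genes. Ints6l rose from 17.1 ± 1.16 to 207 ± 24.5 TPM, and Ints12 fell from 212 ± 12.6 to 50.9 ± 1.98. The list of cap binding, export and hypermethylation had 1 of 16 genes higher and 14 lower (median -0.80). Smn1, which assembles snRNPs, fell from 85.4 ± 10.7 to 15.5 ± 0.355 TPM, and its partner Gemin6 from 38.4 ± 4.49 to 8.43 ± 0.238.

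The RNPs that hold the listed RNAs were counted next, beside 46.3% of all genes lower. Of 14 telomerase genes 11 were lower and 2 higher (median -1.29). Tert, the reverse transcriptase that uses Terc as its template, held 934, 332 and 406 tags in mESCs and 1, 0 and 2 in mOPCs, and Nop10 fell from 270 ± 42.2 to 35.1 ± 5.49 TPM. All 11 protein genes of RNase P and RNase MRP were lower (median -1.16). Rpp25 held 2857, 1114 and 1130 tags in mESCs and 0 in each mOPC library, and Pop5 fell from 48.4 ± 3.64 to 11.6 ± 0.272. Of 9 box C/D snoRNP genes 8 were lower and 0 higher (median -1.85), with Nop58 falling from 625 ± 57.0 to 143 ± 6.58 and Snu13 from 49.7 ± 3.83 to 11.7 ± 0.829.

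The other lists were divided or small. Of 9 minor spliceosome protein genes 4 were higher and 4 lower (median 0.14), and Snrnp35 rose from 7.34 ± 0.407 to 29.7 ± 2.05 TPM and Zcrb1 from 41.8 ± 3.63 to 158 ± 5.42. Of 8 genes of the 7SK RNP 4 were higher and 3 lower (median 0.24), where Larp7, which binds the 3′ end of 7SK RNA, fell from 46.2 ± 3.27 to 15.9 ± 1.88 and Hexim2, which binds P-TEFb, rose from 7.45 ± 0.733 to 16.0 ± 0.696. Of 7 genes in the list of Ro60, La and Y RNA binding proteins 2 were higher (Puf60 and Zbp1) and 5 lower (median -1.59). Zbp1 encodes a Z-DNA binding protein and not a Y RNA binding protein, so its call should be set aside. Ssb, the La protein that binds new RNA polymerase III transcripts, fell from 406 ± 37.0 to 67.9 ± 3.51, and Igf2bp1 held 7290, 3368 and 3440 tags in mESCs and 0, 2 and 0 in mOPCs.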

How the data were processed

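CAGE was measured on nuclear RNA of 3 mESC and 3 mOPC libraries. The deposited values are raw counts, made by the authors: tags beginning at each stranded mm10 position, not normalized. The study's methods describe splitting by barcode, bowtie and unique alignments, whereas the submitters' processing notes list BWA 0.5.9 and CASAVA 1.8, so the aligner is not settled. A base that reverse transcription adds at the cap can move a start 1 base upstream, and the files hold no tag sequences. Replicates were not merged.

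Tags were summed on the strand of each GENCODE vM21 gene from 10 bp upstream to the 3′ end, and within 500 or 10 bp of the 5′ end. Rmrp was taken from its ribozyme entry. Total tags per library (16657021 to 40928704) set the precision, and limits cover counting error only. Counts were compared with edgeR 4.0.16 in R 4.3.3 (TMM factors on library totals, filterByExpr, robust quasi-likelihood F test, Benjamini-Hochberg adjusted p under 0.05). Standard errors are the absolute log2 fold change divided by the square root of F. The test was run on simulated counts beforehand. DESeq2 1.42.0, other scalings, windows and filters and leaving out each library were alternatives. Levels, shares and start positions were computed with Python 3.11.15 and have no test.

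The 10 genes, the partner and marker lists and the alternatives were chosen with earlier results of these data known. Named partner genes are the 2 with the largest absolute log2 fold change among those called in each of 10 lists. RefSeq names and starts are from GRCm38.p6.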

Additional observations from a re-analysis of the deposited data

How the results depend on the processing

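The 7 calls of lower tags in mOPCs among the 10 genes were 7 of 7 under other scalings, DESeq2, no filter, the replicate block and without each library in turn (7 to 7). With tags within 500 bp 6 genes were lower and 2 higher, Rnu11 no longer passing at -0.24, and with tags within 10 bp 6 were lower, since Terc begins 26 bases inside its gene. Of the 2 higher genes, Rnu12 reached the test only through its mOPC tags. Without the filter Rnu12 and Rn7sk had log2 fold changes of -0.15 and 1.27 (edgeR adjusted p = 0.784 and 0.0571). Rny3, not called, changed sign to -0.025 with DESeq2 size factors in edgeR, -0.047 with DESeq2 and -0.055 with the replicate block, and ranged from -0.21 to 0.21 without each library in turn. Gm25703 ranged from -0.30 to 0.083 there, and without mOPC library 1 it passed the test as lower (adjusted p = 0.00790). Terc moved from -9.34 to -10.79 without mOPC library 1. Of the named partner genes, Gemin6 and Snrnp35 did not pass within 10 bp (-0.41 and 0.42), Polr1c, Pop5 and Hexim2 were not tested there, and Larp7, Ints12, Snu13, Ints6l and Gtf3c2 moved to -0.67, -1.0, -3.86, 2.68 and 3.95. Within 500 bp Pop5 moved from -2.15 to -7.10 and Hexim2 from 1.00 to 1.97. Tert, Rpp25 and Igf2bp1, at or near 0 tags in mOPCs, also moved by more than 1.5 times with the window, and Tert and Igf2bp1 without single mOPC libraries. The cause was not tested.

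Over all genes 17391 calls (8530 higher, 8861 lower) became 8398 (4015 higher, 4383 lower) within 10 bp, where fewer genes (9750) were tested, and 17338 with the replicate block. Deviations of libraries with the same number correlated at 0.0251, 0.0499 and 0.00105, and not every library correlated best with its own number, so the numbers were not taken to pair libraries.

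The percentage of pairs in which the RNA polymerase II gene was higher was 60 in mESCs with tags within 10 bp and 68 in mOPCs within 500 bp. Leaving out a gene gave, in mESCs and mOPCs, 71.7 and 46.7 (Snord118), 75 and 51.7 (Snord13), 91.7 and 68.3 (Rnu12), 71.7 and 70 (Terc), 85 and 65 (Rmrp) and 71.7 and 51.7 (Rn7sk), with 50 in mOPCs without Rnu11. Without each library in turn it was 76 to 78 and 56 to 60. The main start lay within 5 bp of the annotated 5′ end in 8 of 10 genes, and in 7 or 8 in each library on its own. More than 50% of tags lay within 5 bp in 7 genes, within 2 bp in 6 and within 20 bp in 8, and in 5 when all tags within 500 bp were the denominator. Depth limits Rnu12, Rn7sk, Rny1 and Rny3, with 39 to 145 tags each.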
